A study of Mus musculus with 6 samples.

Results

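Cholinergic neurons make and release acetylcholine, and in the septal area of the mouse forebrain they are known from its medial part, from where they project to the hippocampus. The 8 genes described here cover the steps that mark such a neuron. They were all the rows of the deposited tables with the symbols Chat, Slc5a7, Slc18a3, Ache, Prima1, Lhx8, Gbx1 and Isl1, 8 of the 32285 genes in the annotation. They were measured in 6 single-nucleus RNA libraries of mouse brain, taken from the septal area of wild type animals, which form 1 group and are treated as replicates 1 to 6. The labels used here give no age, sex, number of animals or dissection. They do not say that the libraries came from separate animals, so the p-values reflect the spread among 6 libraries, and that spread may be technical. Of 55537 barcodes, 54623 had at least 500 detected genes and were used.

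Choline acetyltransferase (Chat) makes acetylcholine from choline and acetyl-CoA. The high-affinity choline transporter (Slc5a7) brings choline back into the terminal, and the vesicular acetylcholine transporter (Slc18a3) loads the product into vesicles. Acetylcholinesterase (Ache) breaks acetylcholine down outside the cell, and Prima1 encodes the membrane anchor that holds it at the neuronal surface. Lhx8 and Isl1 are LIM-homeodomain transcription factors and Gbx1 is a homeodomain factor, and all 3 are known from the development of forebrain cholinergic neurons. Crhr2, a receptor of the corticotropin-releasing hormone family, is no member of the set. It was used here to divide Chat neurons, because many of them also held a Crhr2 molecule.

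The positions below are those of the mouse GRCm38 annotation, and no source used here names the build behind the deposited counts. Slc18a3 (chr14:32462438-32464850) lies inside the span of Chat (chr14:32408203-32465989) on the same, minus strand. Reads from the 2 genes therefore cannot be told apart wherever an unspliced Chat transcript covers Slc18a3, and the few Slc18a3 molecules are uncertain for that reason. RefSeq promoters, 250 bases before to 50 after the start, were matched for 7 of the 8 genes (GRCm38.p6), with Gbx1 missing. The 4 genes on which the results turn are shown 5′ to 3′ on the minus strand, with CG dinucleotides in capitals, since these promoters differ widely in CG content although the genes were detected in the same nuclei.
Chat, chr14:32465860-32466159: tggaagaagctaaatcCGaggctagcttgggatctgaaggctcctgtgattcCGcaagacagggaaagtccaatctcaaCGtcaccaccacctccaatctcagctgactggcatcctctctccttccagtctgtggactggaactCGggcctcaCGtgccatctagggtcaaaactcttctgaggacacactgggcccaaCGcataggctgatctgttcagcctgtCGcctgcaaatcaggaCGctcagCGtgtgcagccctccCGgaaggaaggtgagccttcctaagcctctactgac
Slc5a7, chr17:54298985-54299284: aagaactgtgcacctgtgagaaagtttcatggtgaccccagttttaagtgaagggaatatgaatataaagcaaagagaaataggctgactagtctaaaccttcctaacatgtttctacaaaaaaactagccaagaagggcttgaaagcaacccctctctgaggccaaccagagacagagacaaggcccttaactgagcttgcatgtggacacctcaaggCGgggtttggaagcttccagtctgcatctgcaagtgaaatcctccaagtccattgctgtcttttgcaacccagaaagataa
Prima1, chr12:103242097-103242396: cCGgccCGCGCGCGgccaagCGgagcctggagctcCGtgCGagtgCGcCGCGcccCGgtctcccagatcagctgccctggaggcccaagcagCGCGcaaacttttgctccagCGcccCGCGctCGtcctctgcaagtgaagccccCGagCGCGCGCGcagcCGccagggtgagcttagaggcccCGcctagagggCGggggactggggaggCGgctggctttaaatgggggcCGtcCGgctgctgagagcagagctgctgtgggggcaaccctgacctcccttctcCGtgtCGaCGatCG
Lhx8, chr3:154330511-154330810: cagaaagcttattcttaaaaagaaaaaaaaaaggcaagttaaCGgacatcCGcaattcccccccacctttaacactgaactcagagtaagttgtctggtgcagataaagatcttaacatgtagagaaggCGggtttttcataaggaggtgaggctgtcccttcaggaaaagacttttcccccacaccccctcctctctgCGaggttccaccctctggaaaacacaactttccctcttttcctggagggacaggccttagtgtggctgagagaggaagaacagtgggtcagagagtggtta
The Chat promoter held 10 CG dinucleotides, that of Slc5a7 held 1, that of Lhx8 held 4 and that of Prima1 held 33, against a median of 7 over 32851 promoters of the same table. Slc18a3, Ache and Isl1 held 27, 30 and 37. The letters TAATTA, a core read by LIM-homeodomain factors, which read the same on both strands, were in none of the 7 promoters and in 5.29% of all promoters, which says only that these letters are not in these windows.

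The libraries held 70183544 to 95175260 unique molecular identifiers (UMIs, 1 per captured RNA molecule) and 7155 to 11007 nuclei with a median of 5175 to 6863 UMIs. Pairs of libraries shared 12 to 43 barcodes, at most 0.433% of the smaller library. Nuclei fell into 47 clusters drawn without the 8 genes, Crhr2 or the gene lists used below, and 20 of them, with 21456 nuclei, carried neuronal markers. A Chat UMI was found in 885 nuclei, of which 718 (81.1%) lay in neuronal clusters, 103 in clusters with mixed markers or very few UMIs, and 64 elsewhere. As a measure of free RNA, Chat was found in 0.170% of astrocyte-like nuclei at a median of 3687 UMIs, against 3.35% of neurons at a median of 12108 UMIs, and after thinning each nucleus to 3000 UMIs in 0.140% of astrocyte-like nuclei and 1.31% of neurons. In the sums per library, fewer cells of a type and less RNA per cell cannot be told apart.

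A neuron with at least 1 Chat UMI is called a Chat neuron here, and most Chat neurons held only some of the other genes. Many rested on a single Chat UMI, 143 of the 358 with a Crhr2 UMI (39.9%) and 196 of the 360 without (54.4%). How many of these held free RNA only was not tested. Slc5a7 was found in 29.3% of Chat neurons (21.9 to 35.6% over the 6 libraries), against 1.97% of neurons without Chat. Lhx8 was found in 19.9% and 5.46%, Prima1 in 12.5% and 1.85%, and Isl1 in 28.9% and 17.7%. Each of these 4 genes was higher in Chat neurons in 6 of 6 libraries (exact paired sign-flip permutation test, two-sided, p = 0.03125, the smallest that 6 libraries allow; 0.0547 after adjustment over the 7 genes compared). Ache was found in 20.3% of Chat neurons and 15.6% of the others, higher in 5 of 6 libraries (exact p = 0.0625, adjusted 0.0729), and Slc18a3 in 1.77% and 0.0148% (exact p = 0.0625, adjusted 0.0729). Gbx1 gave 2.33% and 2.50%, higher in 3 and lower in 3 libraries (exact p = 0.812). Seen from the other gene, Chat was found in 207 of the 614 neurons with Slc5a7 (33.7%), and in 13 of the 16 neurons with Slc18a3. The shares for Slc18a3 are not independent of Chat, inside whose span it lies on the same strand. The median UMIs per nucleus were 17720 in Chat+Crhr2+, 15662 in Chat+Crhr2-, 14455 in Chat-Crhr2+ and 11777 in Chat-Crhr2- neurons. When nuclei were thinned to 3000 UMIs, Chat neurons were called anew from the UMIs left, so the groups differ from those above. Slc5a7 was then found in 23.9% of Chat neurons against 0.768%, Prima1 in 11.5% against 0.595% and Lhx8 in 9.93% against 2.15%, whereas Ache gave 4.31% against 4.10%. For Isl1 the excess in Chat neurons was 11.3 percentage points, and 2.32 at its lowest among the processing alternatives, thinning included.

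Between Chat neurons with and without Crhr2, the share holding Slc5a7 was 31.9% and 26.6%, higher with Crhr2 in 5 of 6 libraries (exact paired sign-flip permutation test, p = 0.0938, adjusted 0.131 over 7 genes), although its level was lower with Crhr2, as given below. Thinned to 3000 UMIs the order turned, to 14.9% with and 26.0% without Crhr2 (means over libraries, 58 and 220 nuclei in all). These groups were redrawn from the Chat and Crhr2 UMIs left after thinning, so they are not the same sets of nuclei. Prima1 was found in 3.06% and 21.8%, Lhx8 in 12.6% and 27.2% and Ache in 15.5% and 25%, each lower with Crhr2 in 6 of 6 libraries (exact p = 0.03125, adjusted 0.0729). Isl1 gave 23.5% and 33.8%, lower in 5 of 6 (exact p = 0.0938, adjusted 0.131).

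The Chat neurons were divided by Crhr2. Of the 718, 358 held a Crhr2 UMI (Chat+Crhr2+), 49.9%, and 43.6 to 54.7% in single libraries, while 360 held none (Chat+Crhr2-). Among the neurons without Chat, 1734 held Crhr2 (Chat-Crhr2+, 8.36%) and 19004 did not (Chat-Crhr2-). The median UMI count per nucleus in these 4 groups was 17720, 15662, 14455 and 11777, so a nucleus with both molecules was also the most deeply sampled. Levels are given as counts per 1e6 UMIs of the summed nuclei of a library (CPM), and the levels of Chat and Crhr2 themselves follow from the division and were not tested.

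**Figure D1:**
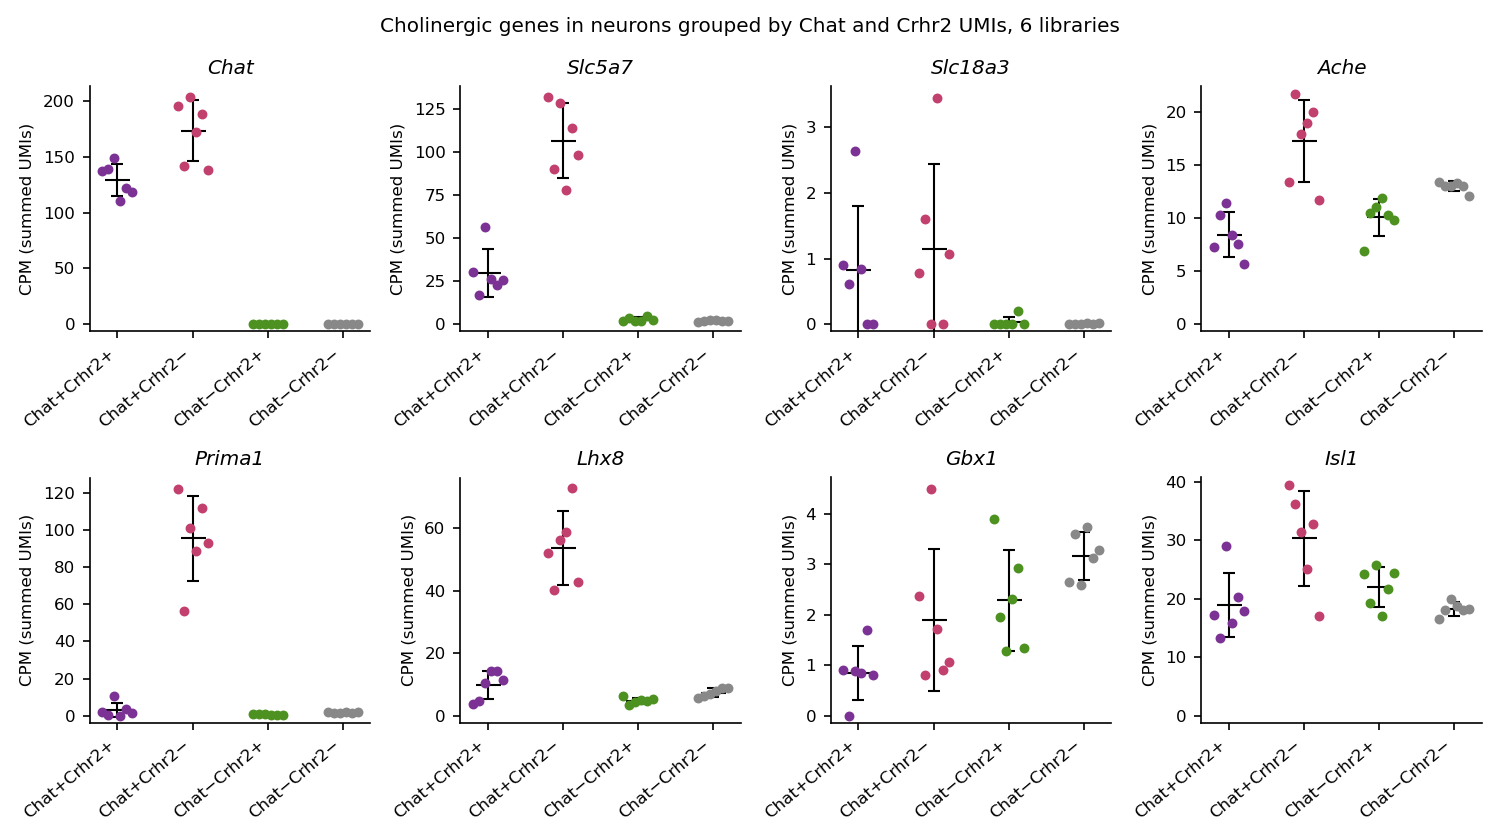
Level of each of the 8 genes (y axis, CPM of summed UMIs) in the 4 groups of neurons (x axis). Points are the 6 libraries, bars the mean ± SD, drawn down to the axis where the SD exceeds the mean. Slc5a7, Prima1 and Lhx8 stand highest in Chat+Crhr2- neurons in every library, with Slc5a7 at 77.7 to 132 CPM there.

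Slc5a7, the choline transporter, had a lowest, median and highest library of 17.0, 25.9 and 56.3 CPM in Chat+Crhr2+ neurons, of 77.7, 106 and 132 CPM in Chat+Crhr2- neurons, of 1.60, 2.39 and 4.67 CPM in Chat-Crhr2+ neurons and of 1.43, 1.89 and 2.40 CPM in Chat-Crhr2- neurons. Both groups with Chat lay above both groups without it in all libraries, and the 2 groups with Chat did not overlap. Chat+Crhr2- neurons exceeded Chat-Crhr2- neurons by 5.79 ± 0.16 on the log2 scale (SE), about 55.2-fold (edgeR quasi-likelihood test, adjusted p = 9.92e-22, higher in 6 of 6 libraries). Chat+Crhr2+ neurons exceeded Chat-Crhr2+ neurons by 3.38 ± 0.26, about 10.4-fold (edgeR, adjusted p = 2.59e-11, 6 of 6). Within Chat neurons, those with Crhr2 were lower by a log2 difference of -1.83 ± 0.18 (edgeR, adjusted p = 2.56e-09, lower in 6 of 6). With nuclei thinned to 3000 UMIs, which left 4 libraries in these comparisons, the difference with Crhr2 was 2.62 ± 0.89 and that within Chat neurons -1.55 ± 0.58, and neither passed (edgeR, adjusted p = 0.0786 and 0.179).

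Prima1, the acetylcholinesterase anchor, had a lowest, median and highest library of 0, 1.72 and 10.5 CPM in Chat+Crhr2+ neurons, of 56.2, 96.9 and 122 CPM in Chat+Crhr2- neurons, of 0.195, 0.658 and 0.889 CPM in Chat-Crhr2+ neurons and of 1.30, 1.61 and 1.89 CPM in Chat-Crhr2- neurons. Chat+Crhr2- neurons did not overlap with any other group. They exceeded Chat-Crhr2- neurons by 5.90 ± 0.17 (log2, edgeR, adjusted p = 1.08e-21, 6 of 6 libraries), and Chat+Crhr2+ neurons were lower than they were, with a log2 difference of -5.00 ± 0.28 (edgeR, adjusted p = 3.02e-14, lower in 6 of 6). Prima1 passed the low-count filter through the Chat+Crhr2- neurons, in which it is high. Both calls were the same with genes of low counts kept in. Between Chat+Crhr2+ and Chat-Crhr2+ neurons the groups overlapped, with a difference of 2.19 ± 0.63 (edgeR, adjusted p = 0.0117) that was positive in 4 of 6 libraries and rested on library 3, which also held the single Chat+Crhr2+ nucleus of cluster 35 described below. Without replicate 3 it was 1.33 ± 0.71 and did not pass (adjusted p = 0.245), nor did it with each nucleus gated singly as a neuron (edgeR, adjusted p = 0.0853). The Chat+Crhr2+ neurons held 21 Prima1 UMIs in all, in 10 of 358 nuclei.

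Lhx8, the lineage factor, had a lowest, median and highest library of 3.64, 10.9 and 14.4 CPM in Chat+Crhr2+ neurons, of 40.1, 54.1 and 72.7 CPM in Chat+Crhr2- neurons, of 3.38, 4.85 and 6.19 CPM in Chat-Crhr2+ neurons and of 5.73, 7.42 and 8.89 CPM in Chat-Crhr2- neurons. It was higher in Chat+Crhr2- than in Chat-Crhr2- neurons by 2.88 ± 0.13 (log2, edgeR, adjusted p = 1.29e-16, 6 of 6 libraries). Between Chat+Crhr2+ and Chat-Crhr2+ neurons the difference was 1.03 ± 0.25 (edgeR, adjusted p = 0.00262, 5 of 6), and between Chat+Crhr2+ and Chat+Crhr2- neurons it was -2.42 ± 0.19 (edgeR, adjusted p = 4.86e-11, lower in 6 of 6). Thinned to 3000 UMIs, with 4 libraries, these last 2 differences kept their sign and did not pass (edgeR, adjusted p = 0.764 and 0.641). The call of Lhx8 as higher in Chat+Crhr2- than in Chat-Crhr2- neurons stayed when thinned. Isl1, the other LIM-homeodomain factor, averaged 18.9 ± 5.44 CPM in Chat+Crhr2+, 30.3 ± 8.09 in Chat+Crhr2-, 22 ± 3.43 in Chat-Crhr2+ and 18.2 ± 1.14 in Chat-Crhr2- neurons (SD, n = 6 each). It was higher in Chat+Crhr2- than in Chat-Crhr2- neurons by 0.78 ± 0.14 (edgeR, adjusted p = 0.000169, 5 of 6) and lower in Chat+Crhr2+ than in Chat+Crhr2- neurons, with a log2 difference of -0.68 ± 0.19 (edgeR, adjusted p = 0.0114, lower in 5 of 6), a call that was lost without replicate 1 or 2 (adjusted p = 0.0686 and 0.109). With Crhr2, the Chat contrast of Isl1 was -0.22 ± 0.16 and did not pass (edgeR, adjusted p = 0.423).

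Ache, the degrading enzyme, averaged 8.44 ± 2.10 CPM in Chat+Crhr2+, 17.3 ± 3.90 in Chat+Crhr2-, 10.1 ± 1.73 in Chat-Crhr2+ and 13.0 ± 0.460 in Chat-Crhr2- neurons (SD, n = 6 each). Chat+Crhr2+ neurons lay below Chat+Crhr2- neurons in 6 of 6 libraries, with a difference of -0.98 ± 0.21 (log2, edgeR, adjusted p = 0.000857). The difference between Chat+Crhr2- and Chat-Crhr2- neurons was 0.44 ± 0.14 (edgeR, adjusted p = 0.0373, 5 of 6 libraries), and it did not pass without any one of replicates 2, 3, 4 or 5 (adjusted p = 0.0839 to 0.197), nor when genes with low counts were kept in (0.182). With Crhr2 the Chat contrast of Ache was -0.23 ± 0.19 (edgeR, adjusted p = 0.474).

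Slc18a3 and Gbx1 did not pass the filter on low counts. Slc18a3, the vesicular transporter, gave 37 UMIs in all nuclei and 17 in neurons, of which 6 lay in Chat+Crhr2+, 8 in Chat+Crhr2-, 1 in Chat-Crhr2+ and 2 in Chat-Crhr2- neurons. Its pooled level in Chat+Crhr2- neurons was 157-fold that of Chat-Crhr2- neurons (1.21 against 0.00771 CPM, 95% counting interval 31.4 to 1519), and in Chat+Crhr2+ neurons 23.3-fold that of Chat-Crhr2+ neurons (0.80 against 0.0344 CPM, interval 2.82 to 1070). These intervals are exact binomial ones and cover counting error only. Gbx1 averaged 0.854 ± 0.536 CPM in Chat+Crhr2+, 1.89 ± 1.40 in Chat+Crhr2-, 2.28 ± 1.0 in Chat-Crhr2+ and 3.16 ± 0.473 in Chat-Crhr2- neurons, with its lowest mean where both molecules were present. Tested without the filter, Slc18a3 was called higher in Chat neurons with Crhr2 (edgeR, adjusted p = 0.0242, higher in 4 and lower in 1 of 6 libraries) and without it (adjusted p = 3.05e-07, higher in 4 and lower in none), on the 1 and 2 UMIs of the groups without Chat. Slc18a3 lies inside Chat, whose UMIs define the groups, and reads from unspliced Chat transcripts covering it cannot be told apart from its own. The ratios and calls of Slc18a3 are therefore not independent of the division. In the same fit the Chat contrasts of Gbx1 were -1.52 ± 0.56 with Crhr2 (edgeR, adjusted p = 0.0756) and -0.85 ± 0.41 without it (adjusted p = 0.280).

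Set against all genes tested, the members' calls read as follows. Without Crhr2, Slc5a7, Prima1, Lhx8, Isl1 and Ache were all higher in Chat neurons, where 12% of 12692 genes were called, 6.79% higher (862) and 5.17% lower (656). With Crhr2, Slc5a7, Prima1 and Lhx8 were called higher, where 19.0% of genes were called, 9.29% higher (1179) and 9.67% lower (1227). Between Chat neurons with and without Crhr2 the same 5 genes were called lower, where 16.4% of genes were called, 8.91% lower (1131) and 7.46% higher (947). The low-count filter keeps a gene that is high in any 1 group, so these counts describe the 5 of 7 genes that passed it and lend no further weight to them. Slc5a7 passed it through the 2 groups with Chat and Prima1 through Chat+Crhr2- neurons, where they are high. The difference between the 2 Chat contrasts was itself tested, as an interaction in the same fit. It was negative, that is, smaller with Crhr2, for Slc5a7 (log2 -2.40 ± 0.35, edgeR, adjusted p = 1.24e-05), Prima1 (-3.71 ± 0.71, adjusted p = 0.000626), Lhx8 (-1.85 ± 0.26, adjusted p = 7.95e-06) and Isl1 (-1.0 ± 0.21, adjusted p = 0.00179), each in 6 of 6 libraries, where 8.38% of genes were called, 5.0% in that direction (634) and 3.39% in the other (430). Ache gave -0.67 ± 0.23 and did not pass (adjusted p = 0.0737).

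Markers of other cell types that express members stand beside these results. The 5 oligodendrocyte markers summed to 56.1 to 92.8 CPM in Chat+Crhr2+, 50.9 to 125 in Chat+Crhr2-, 64.4 to 109 in Chat-Crhr2+ and 83.0 to 121 CPM in Chat-Crhr2- neurons, and the 4 oligodendrocyte precursor markers to 8.10 to 35.2 CPM in Chat+Crhr2+, 12.6 to 32.8 in Chat+Crhr2-, 11.6 to 24.7 in Chat-Crhr2+ and 20.5 to 31.7 CPM in Chat-Crhr2- neurons, with no marker of either list at 0. The ranges overlapped between the 4 groups, and the part of these cell types in the results was not tested. Predicted doublets were 3.63% of Chat+Crhr2+ and 1.94% of Chat+Crhr2- neurons, against 1.92% of all neurons. With these and nuclei of high mitochondrial share removed, the Chat contrast of Slc5a7 was 3.45 ± 0.24 with and 5.84 ± 0.14 without Crhr2, and that of Prima1 with Crhr2 was 1.15 ± 0.70 and did not pass (edgeR, adjusted p = 0.280).

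The 4 groups did not come from the same clusters. Cluster 21, led by Dach2, Tafa1, Crhr2 and Lama3, held 253 of the 358 Chat+Crhr2+ neurons (70.7%) and 59 of the 360 Chat+Crhr2- neurons. Cluster 35, led by Chat, Slc5a7, Sfta3-ps and Elavl2, held 1 and 64 (17.8%). Cluster 9, led by Nxph1 and Hs3st4, held 41 and 84, and cluster 13, led by Chga and Homer1, held 36 and 46. A Chat UMI was found in 312 of the 919 nuclei of cluster 21 (33.9%) and in 65 of the 366 of cluster 35 (17.8%), so neither cluster was uniformly Chat-positive. Of the Chat neurons, 3 or more Chat UMIs were found in 127 of those 312 and in 57 of those 65.

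**Figure D2:**
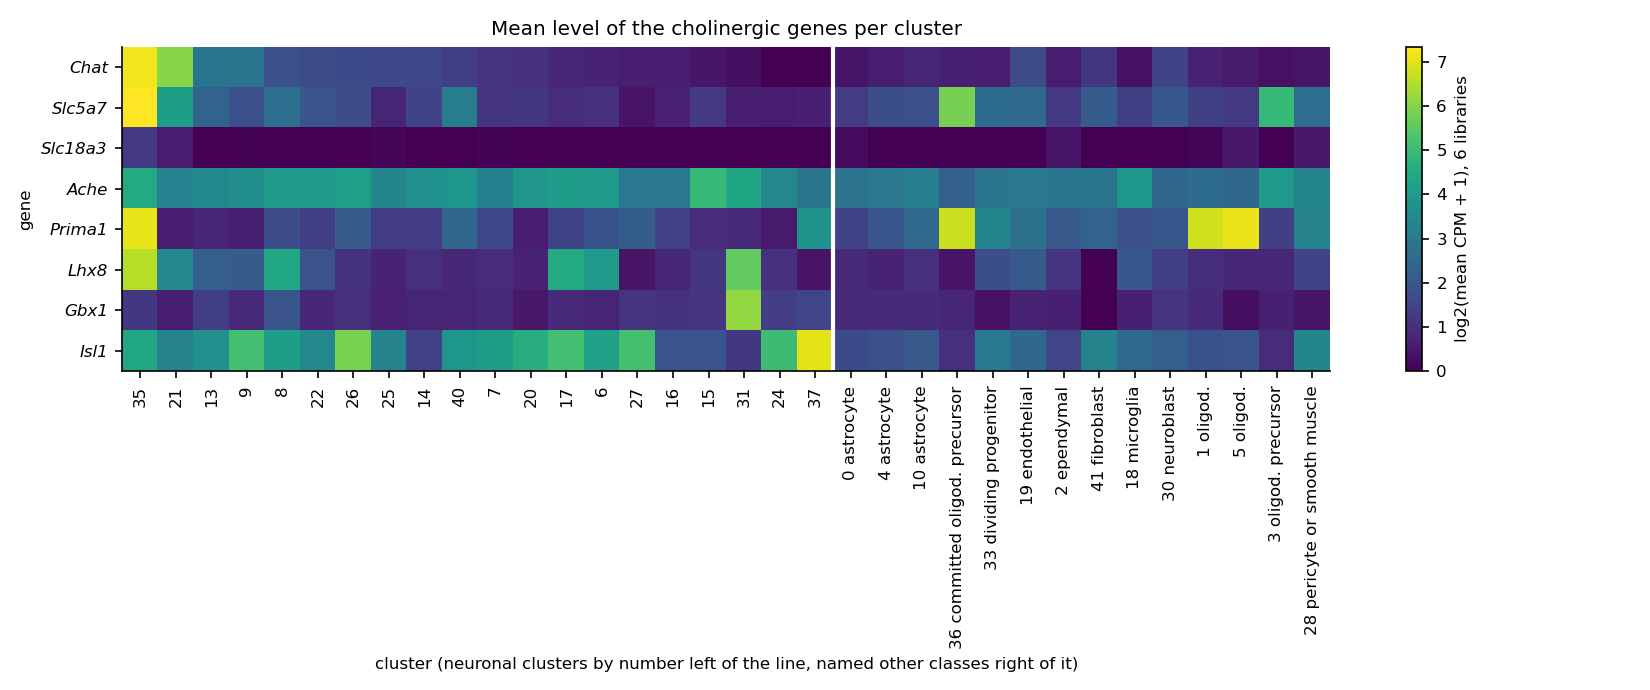
Mean level over 6 libraries (colour, log2 of mean CPM + 1) of the 8 genes (rows) in the 20 neuronal clusters (left of the line, by falling Chat level) and in clusters with markers of other classes (right). Chat, Slc5a7, Prima1 and Lhx8 are all high in cluster 35, Chat in cluster 21 is second to that, and Prima1 is as high in the oligodendrocyte-like clusters as in cluster 35.

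In the 65 Chat nuclei of cluster 35 Slc5a7, Prima1 and Lhx8 were present in most, and Slc18a3 and Gbx1 in few. Slc5a7 was found in 63 of them (96.9%), Prima1 in 61 (93.8%), Lhx8 in 57 (87.7%), Isl1 in 38 (58.5%), Ache in 30 (46.2%), Slc18a3 in 6 (9.23%) and Gbx1 in 2 (3.08%). Their levels were 496 ± 57.6 CPM for Chat, 478 ± 96.4 for Slc5a7, 442 ± 95 for Prima1, 210 ± 36.1 for Lhx8 and 60.3 ± 20.5 for Isl1 (SD over 6 libraries with 8 to 14 such nuclei each). The 301 nuclei of the same cluster without a Chat UMI held Slc5a7 in 38 (12.6%), Prima1 in 13 (4.32%), Lhx8 in 69 (22.9%) and Isl1 in 6 (1.99%), at a median of 9449 UMIs against 16811 in the Chat nuclei. Slc5a7 there was at 25.1 ± 13.8 CPM and Prima1 at 4.26 ± 2.52 CPM, and Lhx8 at 45.4 ± 10.3 CPM, all below their levels in the Chat nuclei.

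In the 312 Chat nuclei of cluster 21 Slc5a7 was the member found most often beside Chat. It was found in 102 of them (32.7%), at 33.0 ± 9.23 CPM, and in 31 of the 607 nuclei of the cluster without Chat (5.11%, 5.70 ± 2.08 CPM). Prima1 was found in 3 of the 312 (0.962%), Lhx8 in 39 (12.5%), Isl1 in 48 (15.4%), Ache in 40 (12.8%), Slc18a3 in 5 (1.60%) and Gbx1 in 5 (1.60%). Within cluster 21 alone, Slc5a7 was at 23.2 to 45.9 CPM in Chat+Crhr2+ nuclei and at 3.38 to 10.9 CPM in Chat-Crhr2+ nuclei over the 6 libraries, and the groups did not overlap, where 23.4% of 7422 genes were called in either direction. Slc5a7 passed the low-count filter there through the Chat+Crhr2+ nuclei, in which it is high, so its difference is given as a description with no test. The other 6 genes did not pass the filter there. In the 341 Chat nuclei of the other 18 neuronal clusters, Slc5a7 was found in 42 (12.3%), Prima1 in 24 (7.04%), Lhx8 in 45 (13.2%) and Isl1 in 122 (35.8%).

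**Figure D3:**
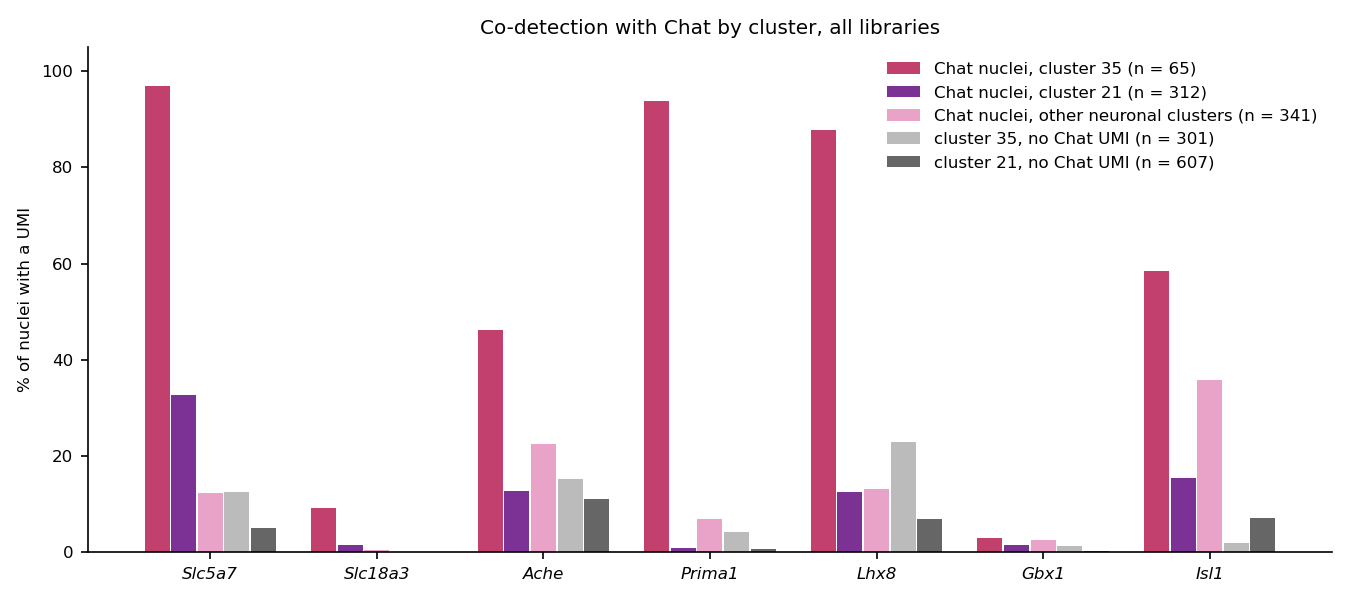
Share of nuclei with at least 1 UMI (y axis, percent, all libraries together) of 7 genes (x axis) among Chat nuclei of clusters 35, 21 and the other neuronal clusters, and among nuclei without Chat in clusters 35 and 21. Slc5a7, Prima1 and Lhx8 reach 96.9, 93.8 and 87.7% in Chat nuclei of cluster 35, whereas in cluster 21 only Slc5a7 passes 20%.

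Counted per nucleus, 60 of the 65 Chat neurons of cluster 35 (92.3%, 95% exact Clopper-Pearson interval 83.0 to 97.5) held 3 or more of the other 7 genes, and none held fewer than 2. In cluster 21 the count was 2 of 312 (0.641%, interval 0.0777 to 2.30), with 124 nuclei (39.7%) holding Chat alone. In the other neuronal clusters it was 23 of 341 (6.74%, interval 4.32 to 9.95). These intervals pool the nuclei of all libraries and cover counting error only, not the spread among libraries. By Crhr2, 10 of 358 Chat+Crhr2+ neurons (2.79%) and 75 of 360 Chat+Crhr2- neurons (20.8%) held 3 or more, against 13 of 1734 Chat-Crhr2+ neurons (0.750%) and 162 of 19004 Chat-Crhr2- neurons (0.852%). Chat alone was held by 36.0% of Chat+Crhr2+ and 36.7% of Chat+Crhr2- neurons. Of the 75, 59 lay in cluster 35.

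**Figure D4:**
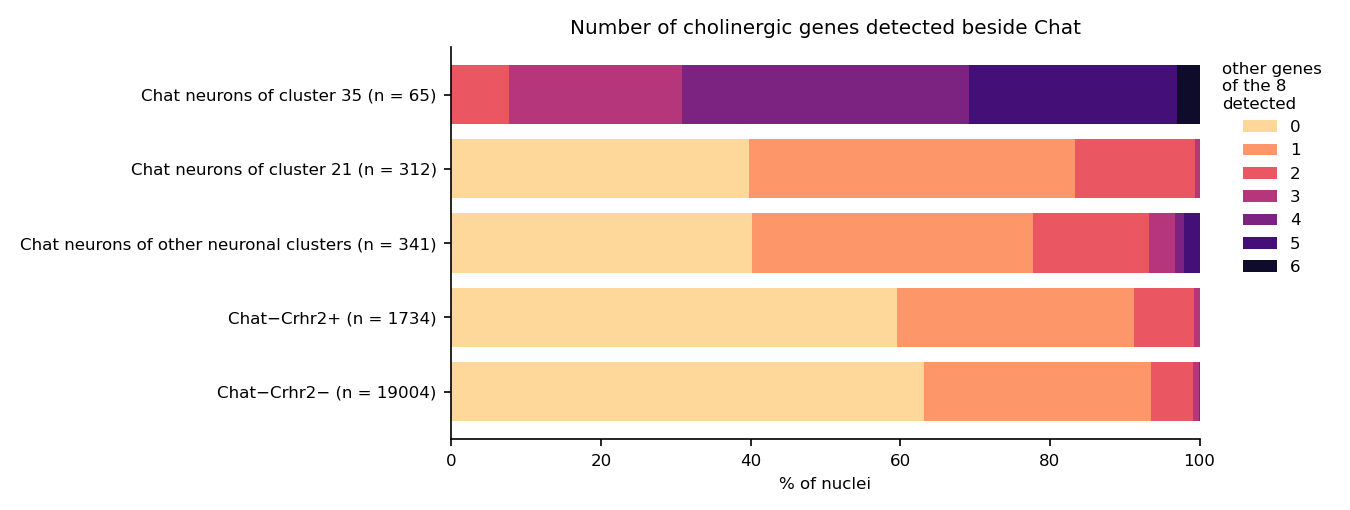
Share of nuclei (x axis, percent) by the number of the other 7 genes detected (colour) in Chat neurons of clusters 35, 21 and the other neuronal clusters and in neurons without Chat, with and without Crhr2. In cluster 35, 92.3% of Chat neurons hold 3 or more, against 0.641% in cluster 21.

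Leaving out cluster 35, 64 of the 360 Chat+Crhr2- neurons, changed several of the results above. Slc5a7 then had a lowest, median and highest library of 17.0, 25.9 and 40.6 CPM in Chat+Crhr2+ neurons and of 11.4, 20.3 and 35.2 CPM in Chat+Crhr2- neurons. The difference between them turned to 0.37 ± 0.24 (log2, edgeR, adjusted p = 0.418) and the groups overlapped. Its Chat contrasts remained past the threshold, at 3.26 ± 0.25 with Crhr2 (edgeR, adjusted p = 2e-11) and 3.70 ± 0.26 without (adjusted p = 4.97e-11), and their difference of -0.44 ± 0.34 did not pass (adjusted p = 0.608). Prima1 and Lhx8 stayed lower in Chat+Crhr2+ than in Chat+Crhr2- neurons, with log2 differences of -3.26 ± 0.51 (edgeR, adjusted p = 3.62e-05) and -0.82 ± 0.25 (adjusted p = 0.0352). Prima1 between Chat+Crhr2+ and Chat-Crhr2+ neurons did not pass (1.34 ± 0.80, adjusted p = 0.281), nor did Isl1 and Ache between Chat+Crhr2- and Chat-Crhr2- neurons (adjusted p = 0.0801 and 0.838) or between the Chat groups (0.294 and 0.147), nor did the interaction of any of the 5 genes (adjusted p = 0.0665 to 0.671). Of 12652 genes tested without cluster 35, 9.45% were called for Chat without Crhr2, 18.9% for Chat with Crhr2, 9.79% between the Chat groups and 4.80% for the interaction, in either direction. Leaving out cluster 21 instead, Slc5a7, Lhx8 and Prima1 stayed lower with Crhr2, with a log2 difference of -2.65 ± 0.32 for Slc5a7 (edgeR, adjusted p = 1.11e-06), -2.62 ± 0.31 for Lhx8 (adjusted p = 7.56e-07) and -4.13 ± 0.35 for Prima1 (adjusted p = 2.71e-09), whereas the calls for Ache and Isl1 between these groups were lost (adjusted p = 0.106 and 0.601). Lhx8 between Chat+Crhr2+ and Chat-Crhr2+ neurons (1.09 ± 0.44, adjusted p = 0.154) and the interactions of Prima1 (-2.87 ± 0.83, adjusted p = 0.0631) and Isl1 (-0.78 ± 0.25, adjusted p = 0.111) did not pass either. Of 11940 genes tested without cluster 21, 10.4% were called for Chat without Crhr2, 6.95% for Chat with Crhr2, 6.94% between the Chat groups and 2.40% for the interaction.

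**Figure D5:**
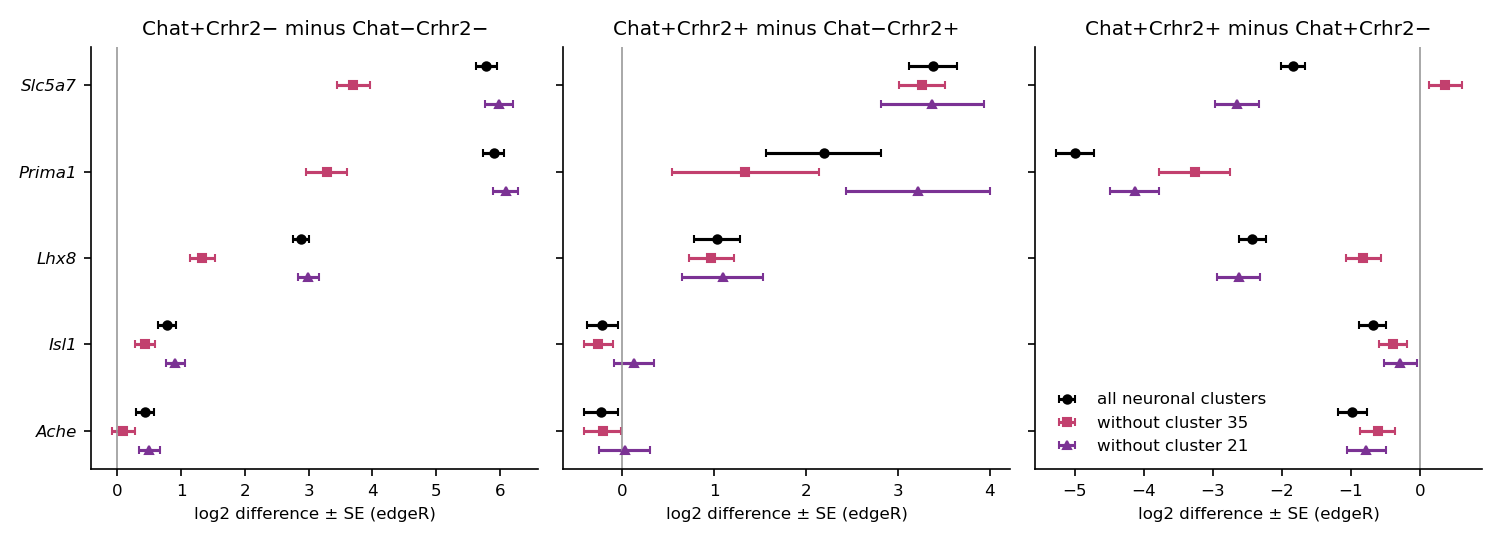
Log2 difference ± SE from edgeR (x axis) of 5 genes (rows) between Chat neurons and neurons without Chat, without Crhr2 (left) and with it (middle), and between Chat neurons with and without Crhr2 (right). Black circles use all neuronal clusters, squares leave out cluster 35 and triangles cluster 21. Without cluster 35 the difference of Slc5a7 on the right lies at 0.37, on the other side of 0.

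The genes also had homes outside the Chat neurons. The levels that follow are of whole clusters and classes, Chat nuclei included, and are described with no test. Of all Slc5a7 UMIs, 55.6% lay in neurons. It reached 56.1 ± 9.97 CPM in the committed oligodendrocyte precursor-like cluster and 29.2 ± 4.52 CPM in the oligodendrocyte precursor-like cluster, where 16% of nuclei held it, while Chat was at 0.251 ± 0.197 CPM in that precursor-like cluster. Of all Prima1 UMIs, 51.3% lay in oligodendrocyte-like nuclei and 16.8% in neurons. Oligodendrocyte-like nuclei averaged 121 ± 9.49 CPM with Prima1 in 33.3% of nuclei. Lhx8 was highest in cluster 35 (93.3 ± 15.7 CPM), then in cluster 31, led by Klhl1 and Casz1 (46.2 ± 10.4 CPM), and lower in clusters 17 and 8 (22 ± 3.96 and 19.7 ± 3.52 CPM). In the nuclei of cluster 35 without a Chat UMI, Lhx8 was at 45.4 ± 10.3 CPM, no higher than in cluster 31. Gbx1 was highest in cluster 31 (70.6 ± 7.31 CPM, in 56.2% of its nuclei), where Chat stood at 0.235 ± 0.384 CPM and Isl1 at 1.28 ± 0.895 CPM. Isl1 was highest in cluster 37, led by Gpr149 and Drd3 (130 ± 19.8 CPM), followed by cluster 26 (57.4 ± 6.09 CPM). Ache averaged 8.49 ± 1.91 CPM in cluster 21, 21.6 ± 4.33 CPM in cluster 35 and 29.0 ± 2.74 CPM in cluster 15, led by Ebf2 and Ebf3, and stood at 44.2 ± 9.66 CPM in the shallow cluster 11, whose median was 775 UMIs.

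Across the 44 clusters with at least 100 nuclei, the genes most like Chat included, by Pearson correlation of log2(CPM + 1), over 14921 genes compared, Moxd1 (r = 0.756), Insrr (0.714), Gldn (0.655) and Nos1 (0.645). Those most like Slc5a7 included A930009A15Rik (0.730), Lgr5 (0.712), Ugdh (0.666) and Sema3d (0.665). Among the members, Chat had r = 0.599 with Slc18a3, 0.588 with Lhx8 and 0.583 with Slc5a7, but 0.0574 with Prima1 and 0.0275 with Gbx1. The value for Slc18a3 is not independent of Chat, inside whose span it lies. All points share the same 6 libraries and clusters differ in depth, so these are descriptions.

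Of 17 lineage factors and neurotrophin receptors, 13 were tested. Without Crhr2, 4 were higher in Chat neurons (Ngfr, Nkx2-1 and Lhx6 among them) and 2 lower (Ldb2 and Ntrk3), where 12% of all genes were called in either direction, with a median log2 difference of 0.03 against 0.01 over all genes. Ngfr, a neurotrophin receptor, averaged 11 CPM in Chat+Crhr2- and 0.211 CPM in Chat-Crhr2- neurons (log2 5.64 ± 0.32, edgeR, adjusted p = 4.58e-14). In Chat+Crhr2+ neurons 2 UMIs of Ngfr were found, against 72 in Chat+Crhr2- neurons, a pooled level 40.9-fold lower (95% counting interval 10.9 to 344). Ngfr passed the low-count filter through the Chat+Crhr2- neurons, in which it is high, and without cluster 35 it was too low to be tested. Nkx2-1, a factor of the medial ganglionic eminence, was higher in Chat neurons by 1.51 ± 0.25 with and 2.13 ± 0.22 without Crhr2 (edgeR, adjusted p = 2.79e-05 and 2.46e-08), and by 1.89 without cluster 35. With cluster 21 left out, 0 of 13 list genes tested were called higher with Crhr2, so the call of Nkx2-1 there was lost. With Crhr2, 1 gene was higher (Nkx2-1) and 6 were lower in Chat neurons (Zic2, Lmo4, Zic4, Ldb2, Zic1 and Ntrk3), where 19.0% of all genes were called, with a median of -0.13 against 0.00 over all genes. The LIM-domain partner Lmo4 averaged 20.3 CPM in Chat+Crhr2+ and 48.4 CPM in Chat-Crhr2+ neurons (-1.21 ± 0.15, adjusted p = 1.51e-07). Between Chat neurons with and without Crhr2, 1 gene was higher (Ldb2) and 5 lower (Ngfr, Zic2, Lmo4 and Sort1 among them), where 16.4% of all genes were called, with a median of -0.25 against -0.00.

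Of 22 genes for choline supply, acetyl-CoA and acetylcholine breakdown, 18 were tested. Without Crhr2, 5 were higher in Chat neurons (Acly, Slc10a4, Pcyt1a, Pcyt1b and Chka) and 1 lower (Slc44a5), where 12% of all genes were called, with a median of 0.20 against 0.01 over all genes. Acly, which makes cytosolic acetyl-CoA from citrate, averaged 91.4 CPM in Chat+Crhr2- and 18.9 CPM in Chat-Crhr2- neurons (2.29 ± 0.09, edgeR, adjusted p = 4.19e-18), but 14.4 CPM in Chat+Crhr2+ and 15.3 CPM in Chat-Crhr2+ neurons. Slc10a4, a synaptic vesicle protein of cholinergic and monoaminergic neurons, averaged 6.69 CPM in Chat+Crhr2- and 1.53 CPM in Chat-Crhr2- neurons (2.14 ± 0.26, adjusted p = 5e-07). It passed the low-count filter through the Chat+Crhr2- neurons, in which it is high. With Crhr2, 1 gene was higher (Pcyt1b) and 2 lower (Slc44a5 and Gpcpd1), with a median of -0.05 against 0.00. These 3 of 18 genes are no larger a share than the 19.0% of all genes called. Set against Chat neurons without Crhr2, those with it had 5 of the genes lower (Acly, Slc10a4, Slc44a5, Acss2 and Gpcpd1), where 16.4% of all genes were called, 8.91% lower, with a median of -0.28 against -0.00. Acly fell by 2.60 on the log2 scale with Crhr2 (SE 0.14, edgeR, adjusted p = 2.26e-14). Without cluster 35 its contrast without Crhr2 was 0.49 (adjusted p = 0.0256) and Slc10a4 was too low to be tested.

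Of 24 acetylcholine receptor genes and partners, 10 were tested. Without Crhr2, 3 were higher in Chat neurons (Chrna10, Chrna7 and Chrm2) and 3 lower (Chrm1, Chrnb2 and Chrm3), where 12% of all genes were called, with a median of -0.09 against 0.01. With Crhr2, 1 was higher (Chrna10) and 3 lower (Chrne, Chrm3 and Chrm2), where 19.0% of all genes were called, with a median of -0.12 against 0.00. The muscarinic receptor Chrm2 averaged 126 CPM in Chat+Crhr2+, 305 in Chat+Crhr2-, 169 in Chat-Crhr2+ and 231 CPM in Chat-Crhr2- neurons, and was lower in Chat+Crhr2+ than in Chat+Crhr2- neurons, with a log2 difference of -1.21 ± 0.11 (edgeR, adjusted p = 9.03e-10). The nicotinic subunit Chrna10 averaged 8.13 CPM in Chat+Crhr2+, 2.75 in Chat+Crhr2-, 2.0 in Chat-Crhr2+ and 0.651 CPM in Chat-Crhr2- neurons, and was higher with Chat both with Crhr2 (2.07 ± 0.35, adjusted p = 4.41e-05) and without it (1.99 ± 0.55, adjusted p = 0.0133). Chrna10 passed the low-count filter mostly through the Chat+Crhr2+ neurons, in which it is high. With cluster 21 left out, 0 of 8 list genes tested were called higher with Crhr2, so its call there was lost. Between Chat neurons with and without Crhr2, 3 were higher (Chrna10, Chrm1 and Tmem35a) and 2 lower (Chrm2 and Chrna7), where 16.4% of all genes were called, with a median of 0.47 against -0.00.

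Of 16 genes for other transmitters and vesicles, 10 were tested. Without Crhr2, 2 were higher in Chat neurons (Sv2c and Syt1) and 2 lower (Slc17a6 and Slc18a2), where 12% of all genes were called, with a median of -0.08 against 0.01. With Crhr2, 3 were higher (Sv2c, Syt1 and Gad2) and 4 lower (Slc32a1, Slc18a2, Gad1 and Slc6a17), where 19.0% of all genes were called, with a median of -0.04 against 0.00. Gad1 and Gad2, the enzymes of GABA synthesis, averaged 153 ± 32.0 and 282 ± 30.5 CPM in Chat+Crhr2+ neurons, against 189 ± 10.3 and 239 ± 12.4 CPM in Chat-Crhr2+ neurons (SD, n = 6 each). The vesicle protein Sv2c averaged 229 CPM in Chat+Crhr2+, 241 in Chat+Crhr2-, 98.6 in Chat-Crhr2+ and 95.8 CPM in Chat-Crhr2- neurons, and its Chat contrasts were 1.23 ± 0.11 and 1.35 ± 0.10 (adjusted p = 2.6e-10 and 2.9e-11). Between Chat neurons with and without Crhr2 only Syt1 passed, and it was higher, with a median of 0.03 against -0.00. This 1 of 10 genes is a smaller share than the 16.4% of all genes called.

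Beside the members, the genes with the largest differences in all 6 libraries and at least 30 CPM in the higher group were the following. Without Crhr2, Tacr3, Ccdc141, Sfta3-ps, Acly and Elavl2 were highest above neurons without Chat, by 1.99 to 2.57 on the log2 scale, and Ebf3, Ebf2, 6530403H02Rik, Tshz1 and Vwc2l were lowest, at -2.49 to -1.94. With Crhr2, Ccdc141, Atp6v1c2, Rreb1, Tafa1 and Nos1 were highest, by 2.0 to 2.79, and 4921539H07Rik, Met, Ddr2, Foxp2 and Hunk were lowest, by -3.78 to -2.33. Ccdc141 averaged 182 CPM in Chat+Crhr2+, 69.3 in Chat+Crhr2-, 26.6 in Chat-Crhr2+ and 13.3 CPM in Chat-Crhr2- neurons. Between Chat neurons with and without Crhr2, Gpr139, Dach2, Dock5, Cmtm8 and Grid2ip were highest, by 2.16 to 2.69, and Elavl2, Unc13c, Tacr3, Pdzrn3 and Tacr1 were lowest, at -4.15 to -2.66. Elavl2, a neuronal RNA-binding protein, averaged 34.1 CPM in Chat+Crhr2+ and 640 CPM in Chat+Crhr2- neurons. These contrasts share groups with each other, and the groups differ in the clusters they came from.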

How the data were processed

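Nuclei from the septal area of wild type mice were profiled in 6 Chromium 3′ version 3 single-nucleus libraries. The authors deposited a matrix of UMI counts per library. Cell Ranger 3.1.0 and STAR are named per the submitters' processing notes, while 5.0.0 stands in the matrices per the file headers. No source used here gives the genome build or says whether introns were counted. Barcodes with at least 500 genes were kept, with no doublet removal. Predicted doublets were 5.43 to 8.29% per library, and 45.8 to 60.9% of simulated ones were found.

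Nuclei were clustered with leidenalg 0.10.2 on a graph of shared neighbours (2000 variable genes, 40 components, resolution 1) without the 8 genes, Crhr2 and the list genes. Clusters counted as neuronal at a mean log2(CPM + 1) of at least 8.5 for pan-neuronal markers and under 6.5 for other classes, limits set after the clusters were seen. UMIs of the 4 groups were summed per library and tested with edgeR 4.0.16 (TMM, filterByExpr, quasi-likelihood, library as block, Benjamini-Hochberg adjusted p under 0.05), which was checked on simulated data. Chat and Crhr2, which define the groups, were removed from the tests. Where nuclei were thinned, the groups were redrawn from the thinned Chat and Crhr2 counts. All groups come from the same 6 libraries, so the replicate numbers pair them by design. Shares of nuclei were compared with exact paired sign-flip permutation tests. The members and lists were chosen with earlier results of these data known. In the comparisons over all genes, named genes had the largest differences called in all 6 libraries, at 30 CPM or more in the higher group. List genes were named with no such floor. DESeq2 1.42.0 and the other alternatives are in the closing section. Intervals cover counting error only. Some genes that met the rules for naming are not reported here.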

Additional observations from a re-analysis of the deposited data

Results flagged for a closer look

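In 5 of the 40 gene and group combinations tested, 1 library stood apart from the other 5. The cutoff flags about 1 in 20 by chance for normally distributed values, a rate that does not hold for genes with few UMIs. Chat in the groups without it was 0 by the division and could not be flagged. Library 3 was high for Slc5a7 (56.3 CPM), Prima1 (10.5 CPM) and Slc18a3 (2.64 CPM) in Chat+Crhr2+ neurons, and it held the single Chat+Crhr2+ nucleus of cluster 35. Slc18a3 in Chat-Crhr2+ neurons was found in library 5 alone (0.195 CPM, 1 UMI). Ache in Chat-Crhr2- neurons was low in library 6 (12.1 CPM).

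The Chat contrast differed between neurons with and without Crhr2, tested as an interaction in edgeR, by -2.40 for Slc5a7, -3.71 for Prima1, -1.85 for Lhx8 and -1.0 for Isl1 on the log2 scale, each in 6 of 6 libraries. Without cluster 35 these differences were -0.44, -1.94, -0.37 and -0.70 and did not pass (edgeR, adjusted p = 0.608, 0.205, 0.634 and 0.0665).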

How the results depend on the processing

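Of the members' log2 differences under all alternatives, 276 kept direction and call, 29 lost the call, 3 gained it and 3 turned. The turned ones were Slc5a7 between Chat neurons with and without Crhr2 without cluster 35 (0.37), and Ache and Isl1 between Chat+Crhr2+ and Chat-Crhr2+ neurons without cluster 21 (0.024 and 0.13). Leaving out clusters was chosen after seeing the data. With no replicate block the Chat contrast without Crhr2 gave 801 higher and 583 lower genes, and no member's call changed. Keeping low counts gave 1092 lower genes there. Thinned to 3000 UMIs, which leaves fewer Chat nuclei, higher and lower genes numbered 248 and 263 for Chat without Crhr2, 67 and 157 with Crhr2, 30 and 113 for Crhr2 within Chat neurons, and 13 and 63 for the interaction. Without cluster 35 they numbered 594 and 645 for Crhr2 within Chat neurons and 217 and 390 for the interaction. Without cluster 21 they numbered 482 and 348 for Chat with Crhr2, 457 and 372 for Crhr2 within Chat neurons and 128 and 158 for the interaction.

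Co-detection with Chat, in percentage points above neurons without Chat, crossed the threshold with at least 2 Chat UMIs, with a per-nucleus neuron gate and without cluster 21, at 42.1, 27.1 and 24.4 for Slc5a7, 16.9, 11.2 and 19.3 for Prima1, 21.7, 14.8 and 20.3 for Lhx8, 12.4, 13.0 and 21.3 for Isl1 and 5.97, 6.17 and 10.3 for Ache. There Ache too was higher in 6 of 6 libraries, so that 5 of 7 genes reached the smallest possible p and all 5 adjusted values came to 0.0438. The crossing is thus no stronger evidence for the other 4. Gbx1 turned to 0.191, 0.285 and 0.180 under the same 3, and ranged from -0.420 to 0.234 with 1 library left out. Chat neurons with Crhr2 minus those without turned for Slc5a7 with at least 2 Chat UMIs (-5.13), thinned (-11.1) and without cluster 21 (-11.1), for Slc18a3 without cluster 35 (1.23) and with 1 library left out (-1.31 to 0.427), and for Isl1 without cluster 21 (3.38). At a clustering resolution of 0.5 the highest cluster averaged 63.2 CPM for Chat, 56.1 for Slc5a7, 121 for Prima1, 46.3 for Lhx8 and 57.4 for Isl1. These were different clusters, of 906 nuclei for Chat, 289 for Slc5a7, 7121 for Prima1, 446 for Lhx8 and 690 for Isl1, so no 1 cluster was highest for Chat, Slc5a7 and Lhx8, as cluster 35 with its 366 nuclei was at resolution 1. The cause of these changes was not tested. The few Slc18a3 and Gbx1 UMIs limit what can be said of them.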
